A study of Mus musculus with 2 samples.

Results

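A set of 10 rapidly inducible genes, out of 19057 genes with a named probe, was compared between bone marrow macrophages and osteoclasts on Illumina bead arrays. They were taken as the probes whose platform annotation names Ier2, Ier3, Ier5, Atf3, Btg2, Zfp36, Dusp1, Dusp2, Dusp5 or Dusp6, which gave 13 of 45281 probes: 3 for Dusp6, 2 for Dusp2 and 1 for each of the others. Both samples came from whole marrow of the tibia and femurs of C57BL/6J mice aged 8 to 12 weeks, and each stood for 3 mice. The macrophage sample was grown with macrophage colony-stimulating factor (M-CSF) at 25 ng/ml. The osteoclast sample was given the same M-CSF for 4 days and then M-CSF with soluble RANKL, the cytokine that drives osteoclast formation, at 30 ng/ml for 3 days. Whether the macrophages were collected before or after those last days is not stated in the labels. There was 1 array per cell type, on different chips according to the sample descriptions, so chip and cell type cannot be told apart, and no replicate gives an error for any difference below.

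Immediate-early genes are transcribed within minutes of a stimulus, without new protein synthesis, largely through MAP kinases acting on transcription factors already bound at their promoters. RANK, the receptor for RANKL, and Toll-like receptors both activate the ERK, JNK and p38 MAP kinases in myeloid cells. The dual specificity phosphatases Dusp1, Dusp2, Dusp5 and Dusp6 remove the activating phosphates from these kinases and so close a feedback loop, while Zfp36 and Btg2 act on messenger RNA decay and Atf3 on transcription. Their transcripts are short-lived, so an array reads the state at the time of harvest.

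Promoters are shown for Dusp1 and Ier3, the members furthest apart on the arrays, and for the other members that hold a complete inducible element, so that these elements can be read beside the values. RefSeq promoters (GRCm38.p6) matched 9 of the 10 genes, and the 250 bases before the annotated start are given 5′ to 3′ on the strand of the gene. They lie at chr17:26508473-26508722 (Dusp1, minus strand), chr1:134079156-134079405 (Btg2, minus), chr19:53528895-53529144 (Dusp5, plus), chr7:28379229-28379478 (Zfp36, minus) and chr17:35821463-35821712 (Ier3, plus). Capitals mark matches to the cyclic AMP response element (CRE) TGACGTCA, its core TGACG and the CArG box bound by serum response factor, on both strands.
Dusp1: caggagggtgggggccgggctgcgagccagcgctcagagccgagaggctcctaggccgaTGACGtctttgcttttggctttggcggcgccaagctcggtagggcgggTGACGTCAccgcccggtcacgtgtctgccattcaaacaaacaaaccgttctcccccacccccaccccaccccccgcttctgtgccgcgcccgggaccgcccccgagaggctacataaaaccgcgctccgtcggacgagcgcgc
Btg2: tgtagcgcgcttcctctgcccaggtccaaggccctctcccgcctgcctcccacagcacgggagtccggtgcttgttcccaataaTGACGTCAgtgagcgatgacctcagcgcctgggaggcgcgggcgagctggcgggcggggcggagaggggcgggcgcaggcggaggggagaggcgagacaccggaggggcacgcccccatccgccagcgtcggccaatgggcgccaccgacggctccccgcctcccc
Dusp5: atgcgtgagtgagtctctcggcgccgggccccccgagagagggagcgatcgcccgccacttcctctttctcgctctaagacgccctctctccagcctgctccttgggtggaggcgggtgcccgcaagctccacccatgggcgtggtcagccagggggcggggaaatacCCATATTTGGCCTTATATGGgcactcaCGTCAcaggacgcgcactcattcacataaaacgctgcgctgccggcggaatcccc
Zfp36: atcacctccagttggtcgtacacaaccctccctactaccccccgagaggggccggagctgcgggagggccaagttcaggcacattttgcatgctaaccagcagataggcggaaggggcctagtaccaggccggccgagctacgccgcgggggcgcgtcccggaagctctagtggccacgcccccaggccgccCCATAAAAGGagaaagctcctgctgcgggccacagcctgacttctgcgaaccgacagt
Ier3: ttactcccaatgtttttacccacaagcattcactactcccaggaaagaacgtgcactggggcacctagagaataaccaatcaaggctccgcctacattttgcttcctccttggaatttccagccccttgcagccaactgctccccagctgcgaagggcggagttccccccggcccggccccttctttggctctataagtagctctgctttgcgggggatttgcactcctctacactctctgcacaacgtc
The Dusp1 window held a complete CRE from 143 to 136 bases before the start and a further core site from 191 to 187 bases before it. The Btg2 window held a complete CRE as well, and each complete CRE also counts as core sites, 1 on each strand. In Dusp5 a pair of CArG boxes stood side by side, CCATATTTGG and CCTTATATGG, and Zfp36 had 1, CCATAAAAGG. The Ier3 window matched none of the motifs searched, which also included AP-1 (TGANTCA) and TATAAA but no NF-κB site. Of the 9 windows, 2 held a complete CRE, 4 a core site, 2 a CArG box and 0 either of the others. Among 32841 mouse promoter windows of the same length, 1.55% held the CRE, 17.8% the core site, 1.47% a CArG box, 6.75% the AP-1 motif and 12.4% TATAAA. Letters that match a motif are a description and do not show that a factor binds there.

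The arrays differed in brightness. Over all probes the median intensity was 3.90 for macrophages and 7.84 for osteoclasts. A probe is called detected where it was brighter than a limit set from the dim probes, an intensity of 4.34 for macrophages and 7.23 for osteoclasts, and 49.0% and 50.8% of probes were. Differences are therefore given as osteoclast minus macrophage after quantile normalization, on the scale of log2(background-corrected intensity + 16). Of 13125 genes detected on at least 1 array, the median difference was -0.056, and the quartiles were -0.49 and 0.47. Among 3887 genes with 2 probes detected on both arrays, the differences read by the 2 brightest such probes were a median of 0.27 log2 units apart, and the 95th percentile was 1.16. This spread between probes is a guide to measurement error within these arrays and does not replace replicate cultures. Most markers of the labelled cell types followed the labels. Of 9 detected osteoclast markers, 7 were higher in osteoclasts by 2-fold or more, led by Ctsk (cathepsin K). Itgb3 (0.71) and Nfatc1 (-0.024) lay within 2-fold, and other Nfatc1 probes detected on both arrays ranged from -0.72 to 3.15. Among 10 macrophage markers, 9 were at least 2-fold lower. Without normalization 8 of the osteoclast markers were at least 2-fold higher, and of the macrophage markers 7 were lower and 1 higher by as much. The osteoclast proton pump gene Atp6v0d2 was not detected in either sample. Markers of other cells moved too. Of 13 granulocyte markers, 12 were at least 2-fold lower in osteoclasts. In the opposite direction, 7 of 8 epidermal, 10 of 11 skeletal muscle and 6 of 8 detected fibroblast markers were at least 2-fold higher (5 of 8 for fibroblasts with genes detected on 1 array at their bounds). In these whole cultures, fewer cells of a type and less RNA per cell cannot be told apart.

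Ier3 was far lower and Dusp1 higher in the osteoclast sample, 6 other members lay within 2-fold, and Ier2 and Btg2 were not detected. Of the 10 genes, 8 were detected on at least 1 array and 7 on both. Among those 8, 1 was at least 2-fold higher, 1 was at least 2-fold lower and 6 lay between, of which Dusp6 passed 2-fold with median scaling and without normalization. Over all detected genes 11.5% were at least 2-fold higher and 8.14% at least 2-fold lower, or 19.6% together, so the members' counts are near the background of these arrays. The median of the detected members was -0.39, against -0.056 for all detected genes. Both depend on the scaling: they were 0.047 and 0.29 with median scaling and 0.34 and 0.58 without normalization.

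**Figure D1:**
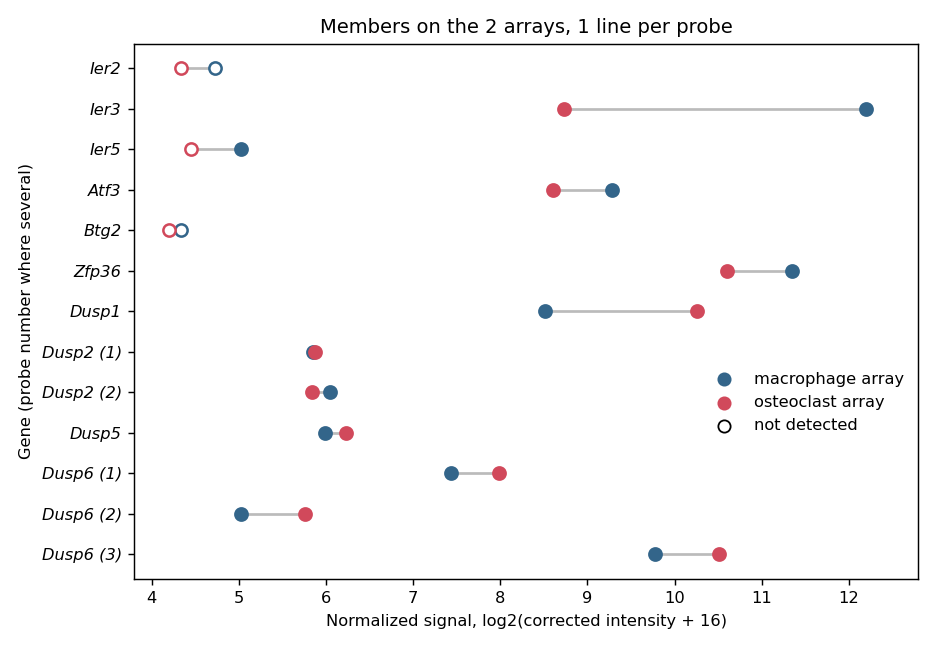
Normalized log2 signal (horizontal axis) of each of the 13 probes (vertical axis) on the macrophage array (blue) and the osteoclast array (red), with open circles where a probe was not detected. Ier3 has the longest line, to the left in osteoclasts, and Dusp1 the longest to the right; signals of different probes are not comparable with each other.

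Ier3 encodes a small stress-inducible protein that regulates cell death and ERK signalling, and its transcription is known to respond to NF-κB. Its probe had an intensity of 3725 in macrophages and 552 in osteoclasts, 6.75 times brighter in macrophages before any scaling. After normalization the signals were 12.20 and 8.73 on the log2 scale, a difference of -3.47, or 11.1-fold lower in osteoclasts. The authors' processed values were 12.34 and 8.88. Of all detected genes, 0.381% had a more negative difference. The Ier3 promoter printed above carries none of the motifs searched, but NF-κB sites were not among those motifs. Granulocyte markers were lower in the same sample: their summed intensity was 49368 in macrophages and 967 in osteoclasts, with Mpo, Retnlg and Mmp8 not detected in osteoclasts. Their part in the difference of Ier3 was not tested.

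Ier2 and Ier5 encode related nuclear proteins, and Ier5 is known in human cells to assist the heat shock factor HSF1. The Ier2 probe read 3.95 in macrophages and -3.64 in osteoclasts, below the detection limit on both arrays. The Ier5 probe read 8.44 in macrophages, just above the limit, and 0.27 in osteoclasts, below it. Taking the dimmest detected signal as a bound, Ier5 was at least 1.25-fold lower in the osteoclast sample. The measured difference of -0.58 was -0.26 with an offset of 50, -0.30 without normalization and -1.36 with an offset of 1, so its size, and that of the bound, depends on these settings.

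Atf3 encodes a bZIP transcription factor that mostly represses and is known to damp inflammatory transcription in macrophages. Its probe read 444 in macrophages and 507 in osteoclasts. Normalized signals were 9.28 and 8.61, a difference of -0.67. The raw intensities lay the other way, and without normalization between the arrays the difference was 0.19, so the direction for Atf3 depends on the scaling. The authors' processed values differed by -0.62.

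Zfp36 encodes tristetraprolin, which binds AU-rich elements of cytokine messenger RNAs and recruits the CCR4-NOT deadenylase. Its intensity was 2001 in macrophages and 2006 in osteoclasts, nearly identical before scaling. With normalized signals of 11.35 and 10.60, the difference was -0.76, under 2-fold. It was 0.0049 without normalization and -0.29 with median scaling. Zfp36 was above the detection limit on both arrays, and the size and sign of its difference depend on the scaling.

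Btg2 encodes an antiproliferative protein that also recruits CCR4-NOT. Its only probe read -2.44 in macrophages and -10.7 in osteoclasts, below the detection limit on both arrays, and no fold is given. Its promoter is among those printed above.

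Among the phosphatases, Dusp1 stood out. It encodes a nuclear phosphatase that prefers p38 and JNK and is known to limit cytokine production in macrophages. The intensity was 250 in macrophages and 1583 in osteoclasts, and the normalized signals were 8.51 and 10.26. The difference of 1.74 corresponds to 3.34-fold higher in the osteoclast sample, and 4.70% of all detected genes had a larger one. It lay between 1.65 and 2.57 under every other offset, background and scaling setting tried. The authors' processed values, 8.59 and 10.35, differed by 1.76.

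Dusp6 encodes a cytoplasmic phosphatase specific for ERK and is itself induced by ERK signalling. Its brightest probe read 644 in macrophages and 1899 in osteoclasts, a normalized difference of 0.74. The next probe read 110 and 323, a difference of 0.55, and the dimmest 8.55 and 46.4, a difference of 0.73. All 3 probes were higher in osteoclasts, within 2-fold and closer to each other than the usual pair of probes. Without normalization the brightest probe differed by 1.53 and with median scaling by 1.24, both past 2-fold.

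Dusp5 encodes a nuclear phosphatase specific for ERK. Its intensity was 29.9 in macrophages and 77.1 in osteoclasts, and the normalized difference was 0.24, less than the usual spread between probes. It was 0.98 without normalization, just inside 2-fold. Dusp2, a nuclear phosphatase of activated blood cells, had 2 probes. One read 31.6 in macrophages and 51.0 in osteoclasts, a difference of -0.20, and the other 26.0 and 52.6, a difference of 0.016. For Dusp2 the sign changed between probes, and also with scaling, since the first probe differed by 0.49 without normalization.

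**Figure D2:**
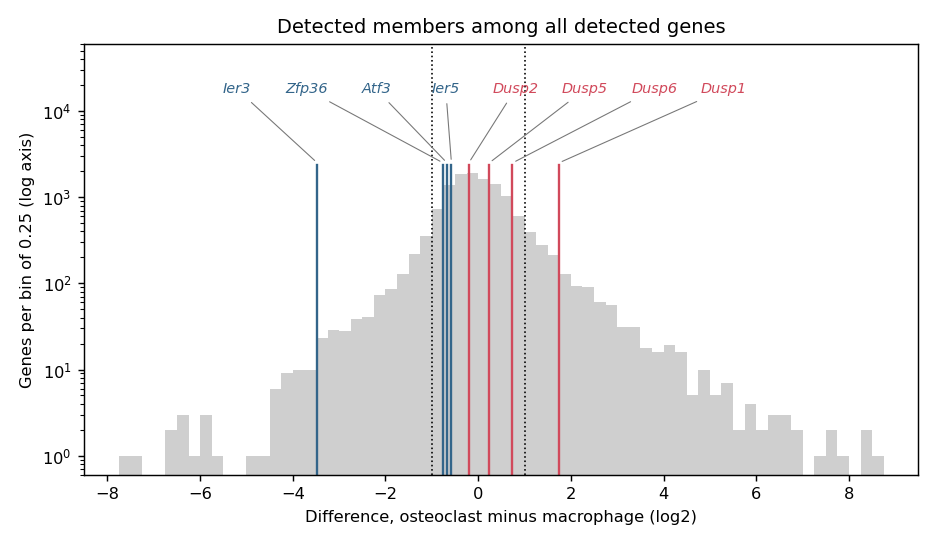
Number of detected genes (vertical axis, log scale) by difference between the arrays (horizontal axis, log2, osteoclast minus macrophage, bins of 0.25), with the 8 detected members as vertical lines, phosphatases in red and the others in blue, and dotted lines at 2-fold. Ier3 at -3.47 and Dusp1 at 1.74 lie outside the dotted lines, and the other 6 lie between -0.76 and 0.74.

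Without normalization the difference of each detected member was higher than after quantile normalization, as was that of genes in general. The median difference of all detected genes was 0.58 without normalization and 0.29 with median scaling, against -0.056 here. Of the genes at least 2-fold apart, 58.5% were higher in the osteoclast sample here, 81.2% with median scaling and 91.0% without normalization. Ier3 stayed at least 2-fold lower and Dusp1 at least 2-fold higher under the 5 scalings drawn, whereas Atf3, Dusp2 and Zfp36 changed sign, Zfp36 to 0.0049 without normalization, and Dusp6 crossed 2-fold. The differences in the authors' processed values lay within 0.18 of the quantile-normalized ones for the 8 detected members, with Dusp2 the furthest.

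**Figure D3:**
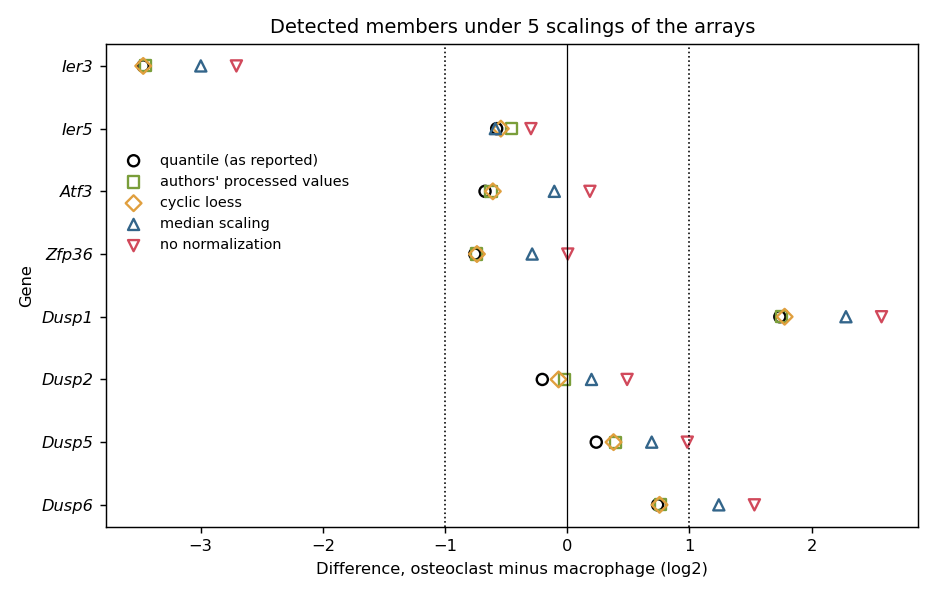
Difference between the arrays (horizontal axis, log2, osteoclast minus macrophage) of the 8 detected members (vertical axis) under 5 scalings, with dotted lines at 2-fold. Quantile, cyclic loess and the authors' values nearly coincide, and median scaling and no normalization lie to the right of them for every gene but Ier5 under median scaling.

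The other MAP kinase phosphatases held a larger difference than any member. Dusp4, a nuclear phosphatase induced by ERK signalling, read 25.9 in macrophages and 1331 in osteoclasts, a normalized difference of 4.16, or 17.9-fold higher. Its probes at 9.26 and 598 (13.7-fold) and at 7.91 and 140 (3.75-fold) were higher too, and its last was detected in osteoclasts only and allowed no fold. Of 5 detected genes in this group Dusp4 was at least 2-fold higher, Dusp8 at the edge of the rule was 2.01-fold lower, and 3 lay between, among them Dusp7 (-0.59) and Dusp16 (0.46). The group's median was -0.32. Dusp8 was within 2-fold in the authors' values (-0.71) and without normalization (-0.38). Among 13 detected atypical phosphatases, which lack the kinase-docking domain, Dusp19 was 2.68-fold higher, 12 lay within 2-fold and the median was -0.065. The further probes of Dusp19 were detected on neither array. Dusp26 was detected in osteoclasts only, at least 1.06-fold higher, while Dusp22 (-0.67) and Dusp13 (-0.60) lay within 2-fold. Another Dusp13 probe went the other way, detected in osteoclasts only and at least 1.22-fold higher.

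Upstream of the phosphatases, differences of 2-fold or more were found in the list of JNK and p38 genes and not in that of Ras-ERK genes. None of 11 detected Ras-ERK genes (0) reached 2-fold, though 2 were higher by as much without normalization, and the median was -0.28. The adaptor gene Shc1 differed by -0.69, Map2k1, which encodes the ERK kinase MEK, by -0.61, and the Raf kinase gene Araf by -0.43. At further probes detected on both arrays the sign varied, from -0.37 to 0.13 for Shc1 and from -0.57 to 0.44 for Araf. The scaffold gene Ksr1, detected in macrophages only, was at least 1.09-fold lower. In the JNK and p38 list 6 of 20 detected genes were lower by 2-fold or more, 2 were higher by as much and 12 lay between, with a median of -0.40. Among all detected genes 8.14% were lower and 11.5% higher by as much. Map3k8, placed in this list although its kinase couples Toll-like receptors to ERK, read 665 in macrophages and 147 in osteoclasts and was 7.30-fold lower. Mapkapk3, a kinase activated by p38, was 2.96-fold lower and Map3k1 2.91-fold lower, and in both the further probes detected on both arrays lay between -1.86 and -1.32. Mapk11, which encodes p38 beta, was 2.50-fold higher at 1 probe; its other probe, detected in osteoclasts only, was at least 1.01-fold higher. Without normalization 1 gene of this list, Map3k8 (-2.03), stayed at least 2-fold lower and 3 were higher. Granulocytes are known to express p38 pathway kinases, and their markers, lower in 12 of 13 cases, moved in the same direction; their part was not tested.

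Of 10 measured genes transcribed with ERK activity, 7 were detected, and Spry2, Spry4 and Etv4 were detected on neither array. Of the 7, 4 were higher by 2-fold or more in osteoclasts (3 with genes detected on 1 array at their bounds, and 3 in the authors' values), against 11.5% of all detected genes. Of the others, 1 was lower and 2 lay between, Etv1 (-0.052) and Errfi1 (0.20), and the median was 1.03 (0.64 at the bounds). The further probes of Etv1, dimmer and detected on both arrays, were past 2-fold higher, at 1.06 and 1.10. Spred1, an inhibitor of Ras signalling, read 428 in macrophages and 2584 in osteoclasts, 3.34-fold higher. The ETS factor gene Etv5 was 2.89-fold higher, and 2.09-fold at its other probe, and Phlda1 was 2.77-fold higher. Spred2, detected in macrophages only at 1 of its 3 probes, was at least 2.14-fold lower. Epidermal, muscle and fibroblast markers were higher in the same sample, and 7 of 8, 6 of 11 and 8 of 10 of those measured were not detected in macrophages. The summed intensities of these lists in macrophages and osteoclasts were 85.5 and 20726, 125.0 and 13794, and 13.7 and 2106. Their part in the differences of Dusp1, Dusp4 and these genes was not tested.

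**Figure D4:**
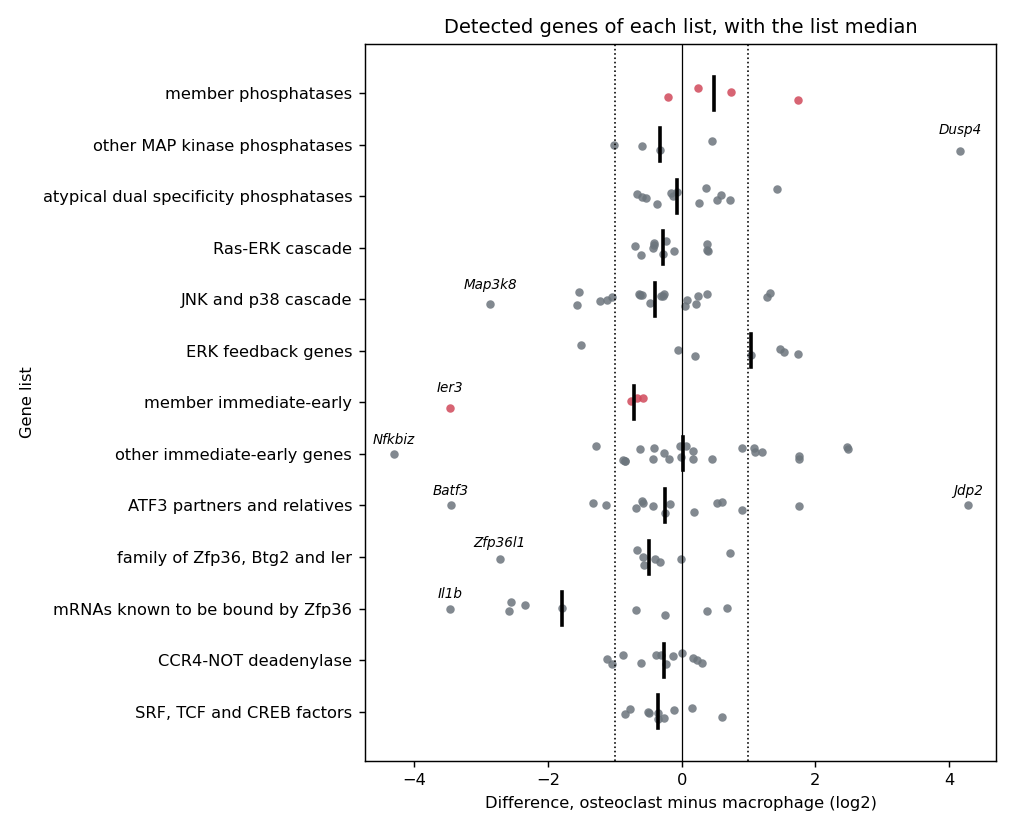
Difference between the arrays (horizontal axis, log2, osteoclast minus macrophage) of each detected gene in 13 lists (vertical axis), with a black bar at the median of each list, members in red and dotted lines at 2-fold. Dusp4 lies far to the right of the member phosphatases, and Nfkbiz and Ier3 far to the left of most immediate-early genes. The list labelled CCR4-NOT deadenylase also holds Pan2, Pan3 and Parn, which encode separate deadenylases. Vertical scatter within a list has no meaning.

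Other immediate-early genes went both ways. Of 24 detected, 7 were at least 2-fold higher, 2 lower and 15 between, with a median of 0.022. The shares over all detected genes were 11.5% higher and 8.14% lower. Without normalization 10 of the 24 were at least 2-fold higher and 1 lower, against 29.1% and 2.87% of all detected genes. The AP-1 gene Fos read 242 in macrophages and 2551 in osteoclasts and was 5.53-fold higher. The transcription factor genes Klf4 (5.60-fold) and Myc (3.38-fold) were also higher, each from intensities near the detection limit in macrophages, 5.29 and 5.81. Both other probes of Klf4, detected in osteoclasts only, were at least 2.52-fold and 2.88-fold higher. Nfkbiz, which encodes an atypical IκB protein induced by Toll-like receptors, read 1303 in macrophages and 95.7 in osteoclasts and was 19.8-fold lower. Granulocyte markers were lower and epidermal, muscle and fibroblast markers higher in the same sample, and their part in the differences of these genes was not tested.

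Relatives and partners of Atf3 went both ways. Of 15 detected bZIP relatives 2 were at least 2-fold higher, 3 lower and 10 between, with a median of -0.25. The same shares, 11.5% higher and 8.14% lower, apply to all detected genes. Without normalization 4 bZIP relatives were at least 2-fold higher and 1 lower, against 29.1% and 2.87% of all detected genes. Jdp2, a repressor that pairs with Jun proteins, was 19.4-fold higher, from 46.7 to 2250, and the AP-1 gene Junb 3.38-fold higher. Batf3, a factor of dendritic cells, was at least 10.4-fold lower at 1 probe and at least 4.38-fold at the second. Batf was 2.52-fold lower, but within 2-fold with median scaling (-0.93) and without normalization (-0.63). Epidermal, muscle and fibroblast markers were higher and granulocyte and lymphocyte markers lower in the same sample, and their part in these differences was not tested.

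Relatives of Zfp36 differed from each other. Zfp36l1, whose protein also binds AU-rich elements, read 6516 in macrophages and 1620 in osteoclasts and was 6.59-fold lower; its probe at 2059 and 434 was 8.04-fold lower and its remaining probe, detected in macrophages only, at least 2.98-fold lower. Zfp36l2, of the same family, read 45.8 and 54.2, a difference of -0.56 that was 0.20 without normalization. Among 8 detected relatives of Zfp36, Btg2 and the Ier genes Zfp36l1 was the 1 past 2-fold, and the median was -0.48. The antiproliferative gene Btg1 differed by -0.58 and -0.74 at its probes, Ier5l by -0.66 and Tob1, of the Btg2 family, by 0.73. Of 9 detected messenger RNAs known as targets of tristetraprolin, 5 were lower by 2-fold or more, 0 were higher by as much and 4 lay between, 2 of those above 0, with a median of -1.78. Over all detected genes 8.14% were at least 2-fold lower. The chemokine gene Ccl2 went the other way, from 50.4 to 184, a difference of 0.68 that was 1.55 without normalization, past 2-fold. Il1b (interleukin 1 beta) was 11.0-fold lower, Il10 5.99-fold, the chemokine gene Ccl3 5.09-fold and Cxcl2, detected in macrophages only, at least 4.53-fold, or 2.65-fold at its other probe. Ier3 itself is a known target of tristetraprolin and was left out of that count. Neutrophils are a known source of several of these transcripts, and the part of the lower granulocyte markers in them was not tested.

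Small negative values in these lists depend on the scaling. Without normalization the medians were 0.26 for the other MAP kinase phosphatases, 0.71 for the atypical ones, 0.46 for Ras-ERK genes, 0.28 for JNK and p38 genes, 0.46 for bZIP relatives and 0.21 for relatives of Zfp36, Btg2 and the Ier genes, all above 0, while the tristetraprolin targets stayed at -1.20. Among the genes named, Dusp7 (0.20), Dusp22 (0.21), Dusp13 (0.068), Shc1 (0.071), Map2k1 (0.19), Araf (0.38), Btg1 (0.095) and Ier5l (0.22) also lay above 0 there, and Araf did so under median scaling too, at 0.085. Ier3, Nfkbiz, Map3k8, Zfp36l1, Batf3, Il1b, Il10 and Ccl3 kept their direction, at -2.71, -3.50, -2.03, -1.99, -2.88, -2.83, -1.77 and -1.54.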

How the data were processed

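Intensities of 2 bead arrays were deposited by the authors, 1 per probe and sample on a linear scale, with 38.4% and 36.9% of values below 0 in macrophages and osteoclasts, so a background had been subtracted; the sources used here name no software, method or version. Log2 values are in the authors' processed table, with medians of 5.00 and 5.05 (macrophages, osteoclasts); over 5844 probes with intensities above 200 on both arrays its difference followed the log2 intensity ratio with a slope of 0.97 (r = 0.999 across probes, which are not independent replicates). That sets scale and direction; the normalization behind it is unknown. Per the labels' protocols, biotinylated cRNA was made with the Ambion MessageAmp kit.

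The background mean and SD were estimated from the mode of each array and the spread below it (-3.89 and 3.54 for macrophages, -5.33 and 5.40 for osteoclasts), and passed to normexp in limma. The corrected values plus 16 were log2 transformed and quantile normalized (limma 3.58.1, R 4.3.3; then Python 3.11.15, numpy 2.4.6, pandas 2.3.3). The detection limit was the upper 0.01 tail of a normal background with these values; without control probes the true error rate is unknown. The steps were tested on simulated data.

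Of the probes, 34885 had 1 gene in the platform annotation, 18 several and 10378 none listed; 34807 matched the RefSeq gene table (GRCm38.p6), with 0 symbols changed. A gene's brightest probe by mean signal stood for it. Of 268 entries in 21 lists, 244 were measured. With 1 array per group no test was run: genes were counted at a difference of at least 2-fold when detected on at least 1 array. A gene detected on 1 array has a bound against the higher of its dim value and the lowest detected signal there. The 10 members were described at every probe, and other lists by counts and the up to 4 genes with the largest differences. The members and lists were chosen with earlier results of these data known. The number of arrays limits the precision.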

Additional observations from a re-analysis of the deposited data

How the results depend on the processing

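In the osteoclast sample Ier3 stayed at least 2-fold lower and Dusp1 at least 2-fold higher under all alternatives run for them. The number of members at least 2-fold higher, 1 as reported, was 2 with median scaling and 2 without normalization, where Dusp6 joined Dusp1. The number at least 2-fold lower, 1 as reported, was 2 with an offset of 1 and 2 if no background was corrected, where Ier5, near background, joined Ier3. The median of the detected members, -0.39 as reported, was 0.047 with median scaling and 0.34 without normalization (-0.51 if no background was corrected and -0.48 with an offset of 1). Cyclic loess, an offset of 50, the authors' values, the mean over all probes, the probe with the largest difference, a detection p of 0.05 and only genes detected on both arrays left both counts at 1 and the median between -0.39 and -0.19, apart from -0.40 at a detection p of 0.05. Over all genes, 1503 higher and 1068 lower became 2521 and 584 with median scaling, 3814 and 376 without normalization, 2370 and 2103 with an offset of 1 and 2815 and 2663 if no background was corrected. With no replicates, a median or difference was taken to have moved when it shifted by more than 0.27, the median gap between 2 probes of a gene. No paired analysis was possible because each cell type has 1 array. Differences of dim probes (Ier2, Ier5, Btg2) are set by the offset, and no alternative stands in for replicate cultures.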

Other observations

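Genes for transcription factors that bind immediate-early promoters, and for their coactivators, lay within 2-fold at their brightest probes. Of 10 detected genes for serum response factor, its ternary complex partners and the CREB family, 0 reached 2-fold, with a median of -0.35. Elk4, a ternary complex factor, differed by -0.84, the CREB coactivator genes Crtc3 by -0.78 and Crtc1 by -0.51, and Atf1, detected in osteoclasts only, was higher by at least 0.58 log2 units. Without normalization Elk4 and Crtc3 were at 0.042 and 0.055 and the list median at 0.23. Genes for CCR4-NOT subunits, listed together with the separate deadenylase genes Pan2, Pan3 and Parn, had a median of -0.27 over 12 detected genes. Of these, 2 were at least 2-fold lower, Pan2 (2.16-fold) and Cnot11 (2.06-fold), against 8.14% of all detected genes. The further probes of Pan2 and Cnot11 lay within 2-fold, and in the authors' values 0 of the 12 passed 2-fold. Without normalization the list median was 0.58, with 3 genes at least 2-fold higher and 0 lower. Cnot4 differed by -0.88, with other probes from -1.40 to -0.03, and Pan3, detected in macrophages only, was at least 1.38-fold lower.

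Heat shock and stress genes can be raised by handling of cells together with immediate-early genes. Of 15 detected, 6 were at least 2-fold higher, 1 at least 2-fold lower and 8 between, with a median of 0.35. Among all detected genes the shares were 11.5% higher and 8.14% lower. Without normalization 8 of the 15 were at least 2-fold higher and 0 lower, against 29.1% and 2.87% of all detected genes. Hspb1 was 6.60-fold higher (its other probe, detected in osteoclasts only, allowed no fold), Hsph1 4.13-fold, the mitochondrial chaperonin gene Hspd1 3.86-fold and Hsp90aa1 3.28-fold. Dusp1 and Fos were higher in the same sample. Ier3 (-3.47), Atf3 (-0.67) and Zfp36 (-0.76) were lower, the last 2 with a sign that depends on the scaling. Ier2 and Btg2 were detected on neither array. Epidermal, muscle and fibroblast markers were higher in the osteoclast sample too. Their part and that of handling were not tested. Lymphocyte markers were low, with 2 of 6 measured genes detected, Cd79b (5.13-fold lower) and Nkg7 (at least 2.70-fold lower).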
